A study of Mus musculus with 8 samples.

Results

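The comparison described here asks whether skin without REDD1 answered the phorbol ester TPA in the same way as wild-type skin. It used 6 of the 8 samples of the study, chosen by their labels: 2 vehicle samples and 1 TPA sample of each genotype. The quantity of interest was a difference of differences, the knockout response (TPA against the 2 knockout vehicle samples) minus the wild-type response (TPA against the 2 wild-type vehicle samples), on the log2 scale. A negative value means a response that was lower, or more downward, in knockout skin. The remaining samples, 1 of each genotype given the glucocorticoid FA before TPA, were left out of the main fit. They entered only an alternative fit of all 8 samples and are otherwise quoted as side values.

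All animals were female mice of one F1 C57Bl x 129 background, either wild type or REDD1 knockout, with shaved backs. Vehicle animals received 200 ul of acetone on the skin, and TPA animals 4 ug of TPA in the same volume. FA animals received 2 ug of fluocinolone acetonide 1 h before TPA. Skin was taken 24 h after TPA, and the epidermis was scraped off before total RNA was extracted and sequenced. The labels give no age, no construct of the knockout allele and no statement of whether a sample is 1 animal or a pool. Each TPA group held 1 sample, so its spread was not measured. Every p-value therefore rests on the assumption that a TPA sample varies like the vehicle pairs, and reflects sample-to-sample spread that may be purely technical.

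REDD1, the product of Ddit4, restrains the growth kinase complex mTORC1 through TSC2 when cells are short of oxygen, energy or nutrients. TPA activates protein kinase C, and in mouse epidermis it sets off inflammation, keratinocyte proliferation and a switch from resting keratins to the stress keratins of hyperproliferative skin. Epidermal barrier genes of the cornified envelope, small proline-rich proteins, stefins and S100 proteins are part of the same switch.

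The 6 count tables held between 16874233 and 22560098 counts, so that 3 counts were worth 0.133 to 0.178 CPM (counts scaled to the library's size). Keratinocyte genes were abundant in all 6 samples, with Krt5 between 3769 and 4478 CPM, Krt14 between 2196 and 8216 CPM, and the desmosomal gene Dsp between 8042 and 11061 CPM. One transcript, Gm26917, took 8.34% to 13.8% of the counts in vehicle samples, 19.0% in knockout TPA skin and 24.2% in wild-type TPA skin. Without that transcript 6 genes were called for the difference of responses, the same 6 as with it. All CPM values below are scaled by the trimmed mean of M values (TMM), and a call means a Benjamini-Hochberg adjusted p below 0.05 in edgeR's quasi-likelihood test over 20338 genes.

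Ddit4 (ENSMUSG00000020108, mm10 chromosome 10, 59949669 to 59951834, minus strand) was low in every sample labelled knockout. Wild-type vehicle skin held 131 and 120 CPM and wild-type TPA skin 65.9 CPM. Knockout vehicle skin held 19.3 and 19.0 CPM and knockout TPA skin 4.55 CPM. The genotypes did not overlap under either treatment, and reads counted to the gene remained in the knockout. Ddit4 fell after TPA in both genotypes, by 0.93 ± 0.16 (SE) in wild type and by 2.07 ± 0.19 in knockout on the log2 scale. The difference of -1.14 ± 0.24 was not called (edgeR adjusted p = 0.283). It was -1.21 without wild-type vehicle sample 1, -1.11 without wild-type vehicle sample 2 and -1.15 with a crossed pairing of the vehicle samples. Those 3 fits called it, but each has 1 residual degree of freedom.

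Both genotypes answered TPA with a large and similar change. In wild-type epidermis 2916 genes rose (14.3%) and 2539 fell (12.5%), 5455 in all (26.8% of the genes tested). In knockout epidermis 2845 genes rose (14.0%) and 2393 fell (11.8%), 5238 in all (25.8%). Of these, 3944 genes were called in both genotypes, 3938 of them in one direction and 6 in opposite directions. Another 1511 genes were called in wild type alone and 1294 in knockout alone, which by itself does not show that the responses of those genes differed. The responses of the genotypes share no sample, and across 11868 genes with a mean of at least 2 log2 CPM their Pearson correlation was 0.910, given as a description because genes are not independent replicates.

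The test of the difference itself called few genes. No gene had a called positive difference (0.0%) and 6 had a called negative one (0.0295%). At an unadjusted p below 0.05 there were 1067 genes (5.25%), 503 with a positive difference (2.47%) and 564 with a negative one (2.77%). DESeq2 called 4 positive and 16 negative differences, and limma-voom called none in either direction. In data simulated for this comparison, with 19911 genes tested, the same procedure recovered 32% of 2-fold, 92% of 4-fold and 100% of 8-fold differences. A 2-fold difference in response would thus usually be missed. The simulation planted 200 differences and held no gene-specific spread, so its recovery is a favourable estimate for larger differences too. In the data, S100a8 differed by -3.93 (edgeR adjusted p = 0.101) and S100a9 by -3.28 (edgeR adjusted p = 0.134), and neither was called. The median standard error of the difference was 0.267 log2 units over the 11868 better expressed genes.

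**Figure D1:**
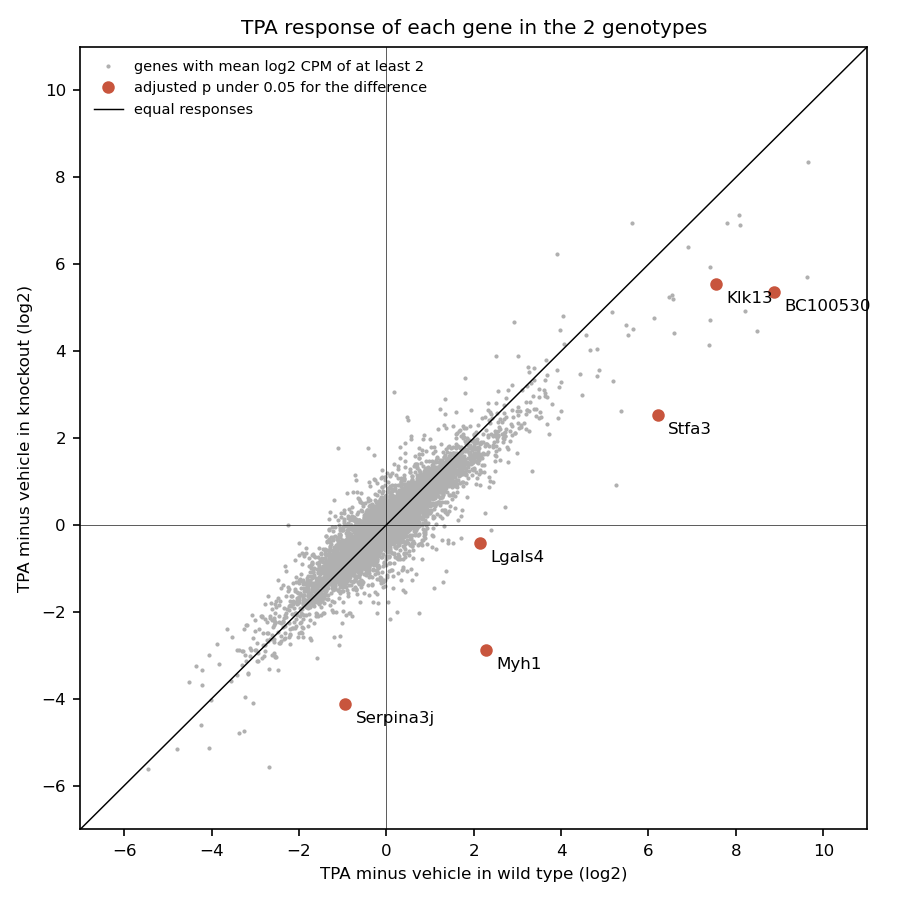
The TPA response of knockout epidermis (y axis, log2 fold change) against that of wild-type epidermis (x axis, log2 fold change), 1 point per gene with a mean of at least 2 log2 CPM, with the called genes named. The genes lie along the line of equal response, and the 6 called genes, Lgals4, Stfa3, Myh1, BC100530, Klk13 and Serpina3j, all lie under it.

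The size of the difference can be set against the vehicle pairs directly. A difference of more than 1 log2 unit in either direction was seen in 270 of 11868 genes (2.28%). The 2 wild-type vehicle samples differed by as much in 79 genes (0.666%) and the 2 knockout vehicle samples in 62 genes (0.522%). The median absolute difference of responses was 0.149 log2 units, against 0.196 between the wild-type and 0.121 between the knockout vehicle samples. The standard deviation over genes was 0.359, against 0.314 for the wild-type and 0.252 for the knockout vehicle pair. The response itself passed 1 log2 unit in 1819 genes (15.3%) in wild type and 1604 genes (13.5%) in knockout. The difference of responses combines 6 samples, and its variance would exceed that of a pair even with no effect of genotype.

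The 6 called genes fell into 2 patterns. Lgals4 and Serpina3j had overlapping vehicle levels in the genotypes and parted in TPA skin. The other 4, Klk13, Stfa3, BC100530 and Myh1, were higher in both knockout vehicle samples than in either wild-type vehicle sample. In TPA skin all 6 were lower in the knockout sample than in the wild-type sample. The same levels made the calls, so the patterns describe these 6 genes and are no further evidence. No share over all genes was taken for either pattern.

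Lgals4 (ENSMUSG00000053964, mm10 chromosome 7, 28833854 to 28841708, plus strand) encodes galectin-4, a lectin that binds galactose-containing sugars and is best known from gut epithelium. Its level was 11.1 and 10.4 CPM in wild-type vehicle skin and 47.8 CPM after TPA. In knockout skin it was 11.5 and 10.02 CPM with vehicle and 8.04 CPM after TPA. The 4 vehicle values thus lay together, and the wild-type TPA sample stood above the other 5. Lgals4 rose in wild type by 2.15 ± 0.18 log2 units (edgeR adjusted p = 1.2e-05), while the knockout response of -0.42 ± 0.20 was not called (edgeR adjusted p = 0.16). The difference of -2.58 ± 0.28 log2 units was called (edgeR adjusted p = 0.0333), and it lay between -2.71 and -2.41 for each of the 4 ways of choosing 1 vehicle sample per genotype. In the FA plus TPA samples the level was 79.1 CPM in the wild-type sample and 11.3 CPM in the knockout one, the same order of genotypes as after TPA alone, with 1 sample each and no test.

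Serpina3j (ENSMUSG00000079013, mm10 chromosome 12, 104314553 to 104320725, plus strand) is a member of the mouse Serpina3 cluster of serine protease inhibitors, a family of near-identical copies between which reads may be split, so its counts are uncertain. Wild-type skin held 52.9 and 90.3 CPM with vehicle and 37.3 CPM after TPA. Knockout skin held 50.9 and 62.0 CPM with vehicle and 3.22 CPM after TPA. The vehicle samples overlapped and the knockout TPA sample was the lowest of the 6. Serpina3j fell in both genotypes, by 0.94 ± 0.27 log2 units in wild type and by 4.13 ± 0.36 in knockout, with a difference of -3.19 ± 0.43 (edgeR adjusted p = 0.0463). After FA plus TPA it stood at 51.3 CPM in the wild-type sample and 25.2 CPM in the knockout one.

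Klk13 (ENSMUSG00000054046, mm10 chromosome 7, 43712567 to 43727534, plus strand) encodes a kallikrein, one of the secreted serine proteases of the upper epidermis that take part in shedding of the cornified layer. Wild-type vehicle skin held 1.21 and 1.27 CPM and wild-type TPA skin 232 CPM. Knockout vehicle skin held 3.84 and 3.81 CPM and knockout TPA skin 178 CPM. The gene rose steeply in both genotypes, from a higher start and to a lower end in the knockout. Its vehicle pairs were the closest among the called genes, and the difference of -2.00 ± 0.27 log2 units (edgeR adjusted p = 0.0463) was made of a knockout excess of 1.62 in vehicle skin and a deficit of -0.38 in TPA skin. After FA plus TPA the genotypes stood at 68.4 CPM (wild type) and 59.6 CPM (knockout).

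Stfa3 (ENSMUSG00000054905, mm10 chromosome 16, 36450537 to 36455392, minus strand) and BC100530 (ENSMUSG00000071561, mm10 chromosome 16, 36359382 to 36367748, minus strand) are neighbouring members of the stefin A family, small inhibitors of cysteine proteases found in the cornified envelope. The family consists of near-identical copies, so how reads are split among its members is uncertain and the pair may not be independent. Stfa3 stood at 3.07 and 4.39 CPM in wild-type vehicle skin and at 278 CPM after TPA, against 18.9 and 35.1 CPM in knockout vehicle skin and 156 CPM after TPA. BC100530 stood at 0.752 and 1.32 CPM in wild-type vehicle skin and at 496 CPM after TPA, against 6.05 and 11.2 CPM in knockout vehicle skin and 355 CPM after TPA. Both genes rose in both genotypes, and for each the vehicle levels of the genotypes did not overlap. The differences were -3.69 ± 0.44 log2 units for Stfa3 (edgeR adjusted p = 0.0433) and -3.52 ± 0.46 for BC100530 (edgeR adjusted p = 0.0463). Most of each came from vehicle skin, where the knockout exceeded wild type by 2.85 for Stfa3 and 3.03 for BC100530. In TPA skin the knockout was lower by values of -0.84 and -0.48. After FA plus TPA, Stfa3 stood at 30.8 CPM (wild type) and 83.3 CPM (knockout), and BC100530 at 88.9 and 126 CPM. That order of the genotypes is the reverse of the order after TPA alone, with 1 sample each and no test.

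Myh1 (ENSMUSG00000056328, mm10 chromosome 11, 67200052 to 67224575, plus strand) encodes a myosin heavy chain of fast skeletal muscle, a tissue that lies under the skin. Wild-type samples held 2.49 and 0.529 CPM with vehicle and 7.20 CPM after TPA. Knockout samples held 25.9 and 23.1 CPM with vehicle and 3.31 CPM after TPA. Among these 6 samples the knockout vehicle pair stood apart from the other 4, and the difference was -5.17 ± 0.67 log2 units (edgeR adjusted p = 0.0463). After FA plus TPA the level was 40.4 CPM in the wild-type sample and 8.75 CPM in the knockout one. The wild-type value exceeded both knockout vehicle levels, though it is on the scale of all 8 samples. The values of the other skeletal muscle markers follow with the cell type markers.

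**Figure D2:**
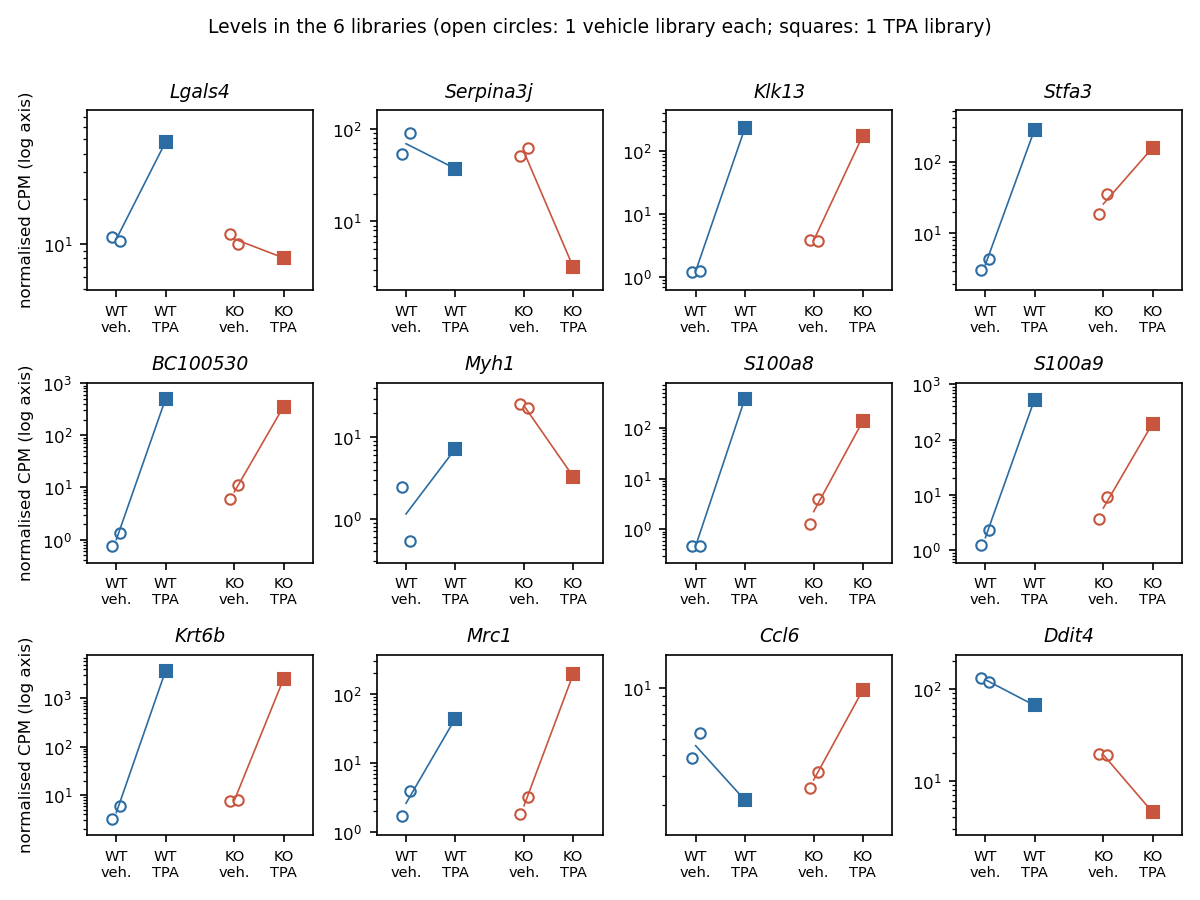
Level of 12 genes in each of the 6 samples (CPM on a log axis), with open circles for vehicle samples, squares for TPA samples and a line from the geometric mean of the vehicle pair to the TPA sample of each genotype. Lgals4 was 47.8 CPM in wild-type TPA skin and 8.04 CPM in knockout TPA skin from vehicle levels of 10.02 to 11.5 CPM, while Klk13, Stfa3 and BC100530 started higher in both knockout vehicle samples.

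The 6 calls were not equally firm. Each kept its direction in all 17 alternative fits, but every fit used the same TPA sample of each genotype, so this says little. Lgals4 was called in 14 of them, Stfa3 in 12 and each of the others in 11. Those tallies include fits with a replicate block or without 1 vehicle sample, which have 1 residual degree of freedom. DESeq2 did not call Myh1 (adjusted p = 0.280) or BC100530 (adjusted p = 0.0909). None of the 6 was called by limma-voom, by limma on log2 CPM or with a higher minimum count of 50, and Lgals4 alone was called when all 8 samples were fitted or when the low-count filter used treatment in place of the 4 groups.

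The genes that TPA changed most were then described as 2 classes, taken from the mean response over both genotypes, a contrast at right angles to the difference. Among 1813 genes raised more than 2-fold, the median response was 1.82 in wild type and 1.66 in knockout, and the median difference was -0.18 log2 units with 37.9% of genes positive. Among 1913 genes lowered more than 2-fold, the median response was -1.69 in wild type and -1.52 in knockout, and the median difference was 0.14 with 60.2% positive. Over all 20338 genes the median difference was 0.01 and 51.8% were positive. In both classes the knockout response was thus the smaller by its median, and the median gap between genotypes was wider in vehicle skin (0.17 for raised and -0.07 for lowered genes, knockout minus wild type) than in TPA skin for the raised genes (-0.03), but not for the lowered ones (0.09). These medians moved with single vehicle samples. Without knockout vehicle sample 2 the medians were -0.07 (45.2% positive) and 0.01 (51.0% positive), and without wild-type vehicle sample 2 the median of the raised genes was -0.31. Scaling by library size alone moved the all-gene median to 0.19, and relative to that median the raised genes stood at -0.26 and the lowered genes at 0.10.

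Genes of the hyperproliferative epidermis had mostly negative differences. For scale, 51.8% of all genes and 37.9% of the genes raised more than 2-fold by TPA had positive ones. Of all genes, 14.3% were called as rising in wild type and 14.0% in knockout. The stress keratins and small proline-rich (SPRR) genes are cytoskeletal and envelope genes switched on in wounded and psoriatic epidermis. Of 18 listed, 16 were tested, and 15 rose in wild type and 16 in knockout. The median response was 7.53 in wild type and 5.72 in knockout. None passed the test of the difference, and 13 were negative with a median of -1.27 log2 units. At an unadjusted p below 0.05, 10 were negative, against 2.77% of all genes. Members of this and the later lists share 1 TPA sample per genotype and are not independent. The lists were also chosen with earlier results known, so such counts are descriptive. That share was not taken over the genes raised by TPA. The median moved between -1.80 and -0.43 over the 4 vehicle choices, and was -0.78 without knockout vehicle sample 2.

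Krt6b, a stress keratin, was 3.18 and 5.93 CPM in wild-type vehicle skin and 3704 CPM after TPA, against 7.68 and 7.80 CPM and then 2515 CPM in knockout skin. Its difference was -1.31 ± 0.36 log2 units (edgeR adjusted p = 0.495). Krt16, its usual companion in hyperproliferative skin, was 16.4 and 15.99 CPM and then 4403 CPM in wild type, against 20.2 and 31.0 CPM and then 3073 CPM in knockout, a difference of -1.18 ± 0.32 (edgeR adjusted p = 0.495). For both keratins the knockout vehicle levels lay above the wild-type ones and the knockout TPA level lay below. Krt6a stood in TPA skin at 2157 CPM (wild type) and 1975 CPM (knockout), with a difference of -0.85 ± 0.38 (edgeR adjusted p = 0.930). Krt17, already expressed in resting hair follicles, reached 5719 and 5216 CPM, and its difference of -0.01 ± 0.29 had an edgeR adjusted p near 1. Sprr2a3, one of the envelope precursors, went from 0.636 and 0.582 to 125 CPM in wild type and from 0.768 and 1.35 to 47.6 CPM in knockout, a difference of -2.18 ± 0.42 (edgeR adjusted p = 0.211). Sprr2 genes are close copies of each other, which makes their separate counts uncertain.

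The S100 and antimicrobial genes encode calcium-binding alarmins, defensins and other peptides that keratinocytes and neutrophils release. Of 16 listed, 13 were tested, 11 rose in wild type and 10 in knockout, and 12 had a negative difference, none of them called. The median was -1.73 log2 units, or -1.13 with genes at 0 in a group set to their bound. At an unadjusted p below 0.05, 7 were negative, against 2.77% of all genes. S100a8 was 0.463 and 0.476 CPM in wild-type vehicle skin and 376 CPM after TPA, against 1.25 and 3.99 CPM and then 137 CPM in knockout skin. S100a9, its partner in the dimer calprotectin, was 1.21 and 2.33 CPM and then 530 CPM in wild type, against 3.65 and 9.14 CPM and then 195 CPM in knockout. Both started higher and ended lower in the knockout, with differences of -3.93 ± 0.64 for S100a8 (edgeR adjusted p = 0.101) and -3.28 ± 0.56 for S100a9 (edgeR adjusted p = 0.134). Each was called in 7 of the 17 alternative fits. Outside fits with 1 residual degree of freedom, only edgeR with no low-count filter called them (adjusted p = 0.016 for S100a8 and 0.019 for S100a9). DESeq2 did not call S100a8 (adjusted p = 0.608). Knockout vehicle sample 2 had the higher level of both genes in its pair. Without that sample the S100a8 difference was -2.88 and the median of the list -0.70, while without wild-type vehicle sample 2 the median was -2.61.

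The late envelope genes of hyperproliferative skin, which include stefins, late cornified envelope genes and Serpinb3 protease inhibitors, held 2 of the called genes, Stfa3 and BC100530. Of 16 listed, 14 were tested and 13 rose in each genotype. The median response was 7.05 in wild type and 5.46 in knockout, and 13 had a negative difference, with a list median of -1.25. At an unadjusted p below 0.05, 8 were negative, against 2.77% of all genes. Without wild-type vehicle sample 2 that median was -2.13, and without knockout vehicle sample 1 it was -1.88. In vehicle skin the knockout was higher in 9 of the 14, and in TPA skin in 2 of them.

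The kallikreins were one-sided as well. All 10 were tested, 10 rose in wild type and 8 in knockout, and all 10 had a negative difference, with a median of -0.60 log2 units. At an unadjusted p below 0.05 there were 5, against 2.77% of all genes. The knockout was higher for 8 of the 10 in vehicle skin and for none in TPA skin. The median stayed between -0.66 and -0.55 over the 4 vehicle choices. Klk13 was the single called member. Klk6, which is active against extracellular and desmosomal proteins, stood at 4.69 and 7.89 and then 1690 CPM in wild type and at 10.8 and 11.8 and then 1595 CPM in knockout, a difference of -0.93 ± 0.33 (edgeR adjusted p = 0.781).

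In the longer list of epidermal differentiation genes, all 36 tested, 28 differences were negative with a median of -0.15 and none was called. Flg, which encodes filaggrin, the protein that bundles keratins in the cornified layer, stood out by its p. Wild-type skin held 453 and 335 CPM with vehicle and 1136 CPM after TPA, and knockout skin 623 and 768 CPM with vehicle and 522 CPM after TPA. Flg rose in wild type by 1.53 ± 0.20 log2 units, while the knockout response of -0.41 ± 0.21 was not called, and the difference was -1.94 ± 0.30 (edgeR adjusted p = 0.0951). Of the 17 alternative fits 8 called it, among them DESeq2 (adjusted p = 5.6e-07) and edgeR with no low-count filter (adjusted p = 0.0081). The other calls came from fits with 1 residual degree of freedom, and limma-voom did not call it (adjusted p = 0.189). After FA plus TPA it stood at 2315 CPM in the wild-type sample and 1631 CPM in the knockout one. Basal and hemidesmosome genes, 15 tested, had a median difference of 0.10. Krt15, a keratin of resting basal cells, fell in both genotypes, from 2093 and 2023 to 177 CPM in wild type and from 2328 and 2292 to 388 CPM in knockout, a difference of 0.97 ± 0.24 (edgeR adjusted p = 0.410).

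**Figure D3:**
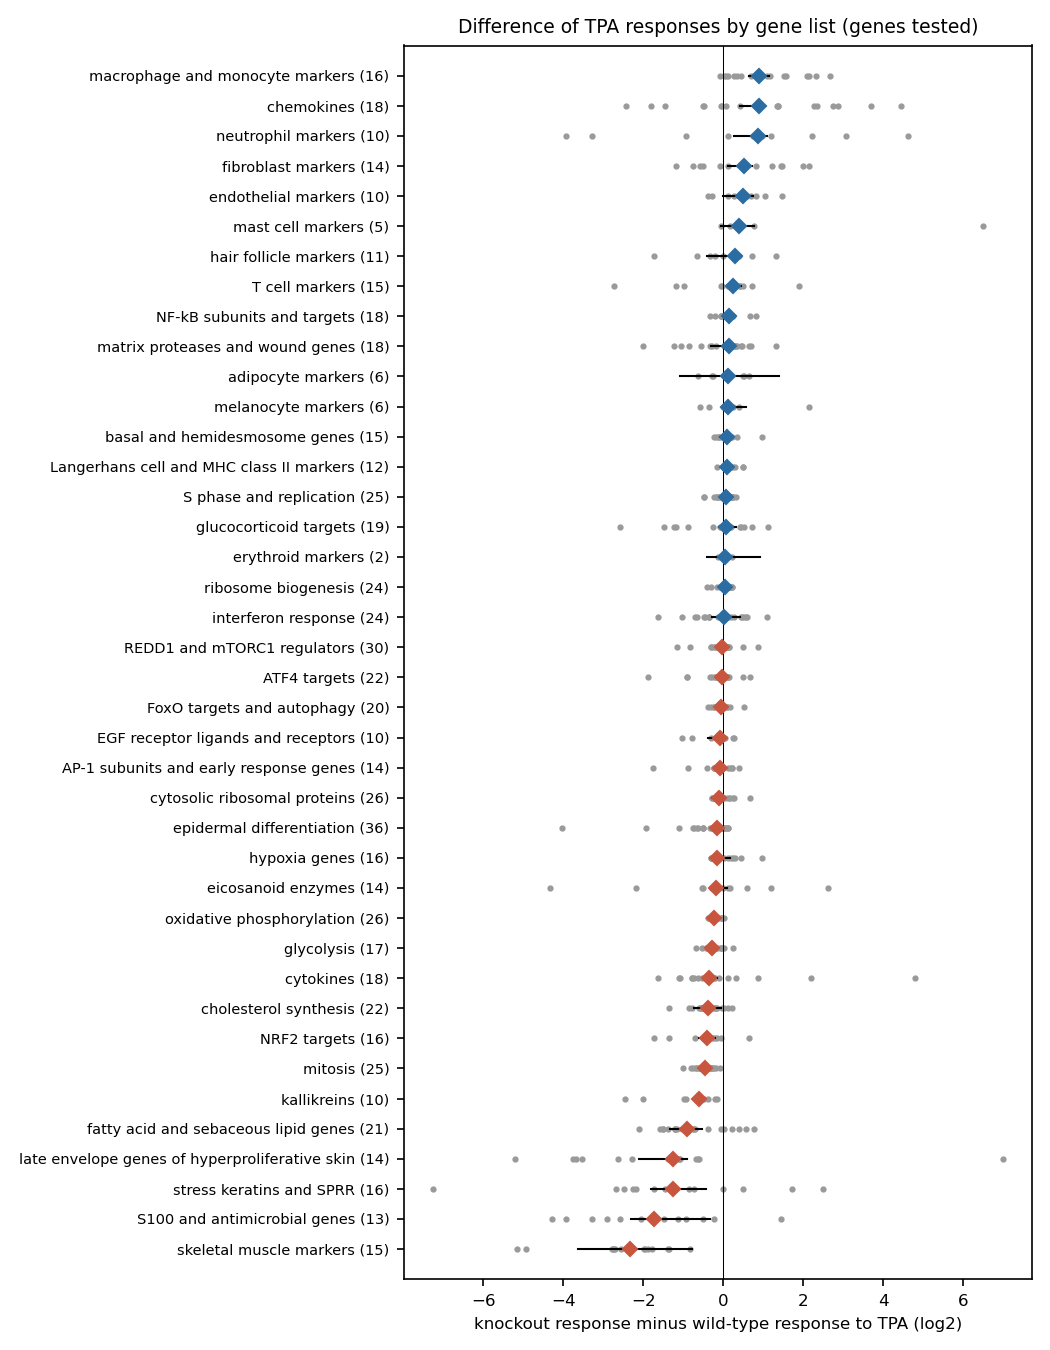
Difference of TPA responses (knockout minus wild type, log2) for the gene lists, with grey dots for tested members, a diamond for the list median (blue above 0, red below) and a black bar for the range of the median over the 4 choices of 1 vehicle sample per genotype. The stress keratin, S100, late envelope and skeletal muscle medians lie below -1, and the macrophage median of 0.90 lies above 0 with a bar from 0.64 to 1.15.

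Proliferation genes rose in both genotypes, where 14.3% (wild type) and 14.0% (knockout) of all genes rose. All 25 mitosis genes rose in each, with a median response of 2.32 in wild type and 1.89 in knockout. The summed level of the list was 356 and 398 CPM in wild-type vehicle skin and 1646 CPM after TPA, against 529 and 543 CPM in knockout vehicle skin and 1646 CPM after TPA. The TPA levels were the same to the rounding, and the vehicle levels did not overlap. All 25 differences were negative, with a median of -0.46, and none was called. Over the genes raised more than 2-fold by TPA 37.9% of differences were positive, and over all genes 51.8%. At an unadjusted p below 0.05 there were 7, against 2.77% of all genes. In vehicle skin 25 of 25 were higher in the knockout, and in TPA skin 14 of 25. Bub1b, a spindle checkpoint kinase, went from 9.54 and 10.6 to 56.7 CPM in wild type and from 15.5 and 16.9 to 45.1 CPM in knockout, a difference of -1.01 ± 0.24 (edgeR adjusted p = 0.408). Mki67, the proliferation marker, went from 91.8 and 109 to 429 CPM and from 151 and 142 to 421 CPM.

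Among 25 genes of S phase and DNA replication, 7 rose in wild type and 11 in knockout, against 14.3% and 14.0% of all genes. Their median difference was 0.08 with 14 positive. Tk1, thymidine kinase, had the smallest p of the list, with a difference of 0.33 ± 0.23 and an edgeR adjusted p near 1. Ribosome biogenesis genes, which mTORC1 is known to promote, rose in 20 of 24 cases in each genotype, and their median difference was 0.04. Cytosolic ribosomal protein genes had a median difference of -0.11 over 26 tested. Rpl3 had the smallest p among them, with a difference of 0.67 ± 0.24 (edgeR adjusted p = 0.780), and Nop58, a nucleolar protein, of the biogenesis list, -0.41 ± 0.22 with an edgeR adjusted p near 1.

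In the fit of 1 mean per group to the 6 samples, no REDD1 or mTORC1 regulator had a called difference. All 30 were tested, 14 were positive and the median was -0.02. At an unadjusted p below 0.05, 2 were negative, Ddit4 itself and Castor2, against 2.77% of all genes. TPA raised 4 and lowered 5 of them in wild type, against 14.3% and 12.5% of all genes. It raised 1 and lowered 5 in knockout, against 14.0% and 11.8% of all genes. Tsc1 and Tsc2, the 2 subunits of the complex through which REDD1 acts, were not called in either genotype, with Tsc2 at 125 and 112 CPM in wild-type vehicle skin and 111 CPM after TPA, against 105 and 104 CPM and then 101 CPM in knockout. Their differences were -0.12 ± 0.22 for Tsc1 and 0.04 ± 0.21 for Tsc2, each with an edgeR adjusted p near 1. The sestrins, stress proteins that also restrain mTORC1, had differences of 0.06 ± 0.28 for Sesn1, 0.0033 ± 0.24 for Sesn2 and -0.02 ± 0.26 for Sesn3. Sesn1 fell in both genotypes, from 62.1 and 62.2 to 22.7 CPM in wild type and from 73.3 and 54.0 to 24.2 CPM in knockout. Txnip, a stress-regulated arrestin that binds thioredoxin and REDD1, fell in both as well, from 490 and 669 to 56.2 CPM and from 818 and 311 to 77.2 CPM, a difference of 0.49 ± 0.59. It was called without knockout vehicle sample 1 (1.31, edgeR adjusted p = 0.048) and without wild-type vehicle sample 1 (0.70, edgeR adjusted p = 0.023), and its sign turned without knockout vehicle sample 2. Ddit4l, the paralog of Ddit4, was under 1 CPM in all 6 samples and its difference of 0.87 ± 1.14 is not informative at this depth. The signs of the differences of Tsc1, Tsc2, Ddit4l, Txnip and the sestrins changed with the fit.

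Glucocorticoid target genes, FoxO and autophagy genes and ATF4 targets, 3 programmes tied to REDD1 or to nutrient stress, had median differences of 0.07, -0.04 and -0.03. Fmo2, a flavin monooxygenase, had the smallest p of the glucocorticoid list, going from 65.4 and 64.4 to 6.76 CPM in wild type and from 49.7 and 36.6 to 1.61 CPM in knockout, a difference of -1.48 ± 0.37 (edgeR adjusted p = 0.421). Gabarapl1, an autophagy gene, had a difference of -0.37 ± 0.23. Slc7a11, the cystine transporter and an ATF4 target, went from 2.02 and 1.80 to 69.6 CPM and from 2.31 and 6.03 to 41.4 CPM, a difference of -1.88 ± 0.53 (edgeR adjusted p = 0.503).

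Among the metabolic lists, the lipid genes differed mainly in vehicle skin. Fatty acid and sebaceous lipid genes serve the sebaceous gland, which scraping of the epidermis can include in part. Their summed level was 4074 and 5958 CPM in wild-type vehicle skin and 6215 CPM after TPA, against 8914 and 10832 CPM in knockout vehicle skin and 6308 CPM after TPA. The vehicle levels did not overlap, while the TPA levels were close. Of 21 tested, 16 differences were negative, with a list median of -0.90, and none was called. At an unadjusted p below 0.05, 12 were negative, against 2.77% of all genes. Without wild-type vehicle sample 2 the median was -1.23, and without wild-type vehicle sample 1 it was -0.64. Dgat2l6, a wax and diacylglycerol acyltransferase, went from 2.60 and 2.33 to 24.7 CPM in wild type and from 8.405 and 16.8 to 29.6 CPM in knockout, a difference of -2.09 ± 0.47 (edgeR adjusted p = 0.376).

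Cholesterol synthesis genes, 22 tested, rose in 11 cases in wild type, against 14.3% of all genes. In knockout 3 rose and 2 fell, against 14.0% and 11.8% of all genes. Their median difference was -0.37, and the knockout was higher for 17 of 22 in vehicle skin and 7 of 22 in TPA skin. NRF2 targets, the antioxidant genes, had 15 of 16 negative differences with a median of -0.40, oxidative phosphorylation genes 25 of 26 with a median of -0.22, and glycolysis genes 15 of 17 with a median of -0.27. None of these was called, and over all genes 51.8% of differences were positive. Without wild-type vehicle sample 1 the medians were -0.23 for NRF2 targets, -0.09 for oxidative phosphorylation and -0.17 for cholesterol synthesis, and without wild-type vehicle sample 2 they were -0.61, -0.39 and -0.65. Gsta4, an NRF2 target that conjugates lipid peroxides, had a difference of -1.35 ± 0.32 (edgeR adjusted p = 0.387), Cox4i1, a subunit of cytochrome oxidase, -0.36 ± 0.21, and Hk2, hexokinase, -0.67 ± 0.21 (edgeR adjusted p = 0.588). Hypoxia genes had a median of -0.16, with 7 of 16 positive, and Bhlhe40, a transcription factor raised by low oxygen, had a difference of 0.46 ± 0.21.

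Signalling genes gave mixed signs. Of 18 cytokine genes tested, 12 rose in wild type, against 14.3% of all genes. In knockout 13 rose and 1 fell, against 14.0% and 11.8% of all genes. The median difference of the cytokine genes was -0.36, or -0.24 without knockout vehicle sample 2. Il33, an alarmin stored in keratinocyte nuclei, went from 18.3 and 25.4 to 90.1 CPM in wild type and from 26.0 and 23.7 to 48.1 CPM in knockout, a difference of -1.09 ± 0.28 (edgeR adjusted p = 0.421). Il1b, an early inflammatory cytokine, rose in both, to 7.46 and 11.6 CPM, with a difference of 0.12 ± 0.44. Chemokines, 18 tested, had a positive median of 0.89, or 0.65 with zeros at their bound, and 11 were positive. That median was smaller in every fit without 1 vehicle sample, from 0.18 without wild-type vehicle sample 2 to 0.67 without knockout vehicle sample 2. Ccl6, a chemokine of macrophages, went from 3.82 and 5.40 to 2.15 CPM in wild type and from 2.55 and 3.16 to 9.78 CPM in knockout. It fell in wild type and rose in knockout, and the difference of 2.88 ± 0.46 did not pass (edgeR adjusted p = 0.101). It was called in 7 of the 17 alternative fits. Outside fits with 1 residual degree of freedom, only edgeR with no low-count filter called it (adjusted p = 0.030).

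The lists of TPA signalling genes had medians near that of all genes. AP-1 subunits and early response genes had a median difference of -0.09 over 14 tested, EGF receptor ligands and receptors -0.08 over 10, NF-kB subunits and targets 0.16 over 18, eicosanoid enzymes -0.17 over 14, and interferon response genes 0.03 over 24. Fos, an AP-1 subunit, had a difference of -1.76 ± 0.74 with wild-type vehicle samples at 7.98 and 28.6 CPM, a pair that differed more than 3-fold. Hbegf, an EGF receptor ligand, differed by -0.77 ± 0.33, Icam1, an adhesion molecule, by 0.81 ± 0.29 and Gbp2, an interferon-induced GTPase, by -1.04 ± 0.37. Interferon response genes were higher in the knockout for 22 of 24 genes in vehicle skin and for 22 of 24 in TPA skin, the same count under both treatments. Ptgs2, the inducible cyclooxygenase, differed by -0.52 ± 0.49, and Odc1, the polyamine enzyme long used as a marker of TPA action, by 0.23 ± 0.33. Pla2g4e, a phospholipase that was the leading eicosanoid gene by p, went from 2.14 and 2.54 to 227 CPM and from 6.05 and 13.5 to 210 CPM, a difference of -2.17 ± 0.48 (edgeR adjusted p = 0.334).

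Matrix proteases and wound genes rose in 15 of 18 cases in wild type and 16 in knockout, with a median difference of 0.15. Over all genes 14.3% rose in wild type and 14.0% in knockout. Mmp3, a stromelysin, went from 0.810 and 1.22 to 50.6 CPM in wild type and from 0.913 and 1.16 to 130 CPM in knockout, a difference of 1.33 ± 0.37 (edgeR adjusted p = 0.495). The vehicle levels overlapped and the TPA levels parted. Mmp13, a collagenase, reached 29.4 CPM in the wild-type sample and 30.3 CPM in the knockout one from vehicle levels of at most 0.232 CPM, and its difference was -1.22 ± 0.99.

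Markers of cells other than keratinocytes moved with some of these results. In bulk samples, fewer cells of a type and less RNA per cell cannot be told apart. The 16 macrophage and monocyte markers had 15 positive differences, a median of 0.90 and 6 positive at an unadjusted p below 0.05, against 2.47% of all genes, and none was called. The median was 0.60 without knockout vehicle sample 1. Their summed level was 251 and 250 CPM in wild-type vehicle skin and 329 CPM after TPA, against 230 and 221 CPM in knockout vehicle skin and 555 CPM after TPA. The vehicle levels lay close together, and all 16 markers were higher in knockout than in wild-type TPA skin. Mrc1, the mannose receptor of tissue macrophages, went from 1.74 and 3.97 to 43.5 CPM in wild type and from 1.83 and 3.20 to 190 CPM in knockout, a difference of 2.32 ± 0.48 (edgeR adjusted p = 0.283). Csf1r, the receptor on which macrophages and Langerhans cells depend, fell in wild type from 96.2 and 98.2 to 46.1 CPM and stood in knockout at 87.3 and 88.9 CPM and then 67.8 CPM, a difference of 0.70 ± 0.21 (edgeR adjusted p = 0.539). The part of macrophage RNA in the Ccl6 value was not tested.

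Neutrophil markers divided. S100a8 and S100a9, also counted above, carried the summed level of the list, which was 82.1 to 99.9 CPM in vehicle skin, 980 CPM in wild-type TPA skin and 442 CPM in knockout TPA skin. Other members went the opposite way, among them Csf3r, the receptor for granulocyte colony-stimulating factor, at 0.405 and 0.212 and then 12.2 CPM in wild type and 0.240 and 0.139 and then 35.6 CPM in knockout. Its difference was 2.22 ± 0.65 (edgeR adjusted p = 0.535). The neutrophil chemokine receptor Cxcr2 was close between the TPA samples, at 35.8 CPM (wild type) and 37.2 CPM (knockout). Of 10 tested, 7 were positive with a median of 0.87, and the protease gene Elane was at 0 in all 6 samples. Without knockout vehicle sample 1 the median was 0.51. The part of neutrophil RNA in the S100a8 and S100a9 values was not tested.

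At an unadjusted p below 0.05, 5 fibroblast markers were positive and 1 negative, against 2.47% and 2.77% of all genes. Over the 14 tested the median difference was 0.53. Without wild-type vehicle sample 2 that median was 0.14. Their summed level ran from 1118 to 1657 CPM over the 6 samples and did not separate the genotypes in TPA skin, where it was 1408 CPM in the wild-type sample and 1308 CPM in the knockout one. Pdgfrb, a receptor of fibroblasts and pericytes, was 3.76 and 5.61 and then 5.81 CPM in wild type and 2.98 and 4.64 and then 13.2 CPM in knockout, a difference of 1.48 ± 0.46 (edgeR adjusted p = 0.600). Col1a1, the main collagen chain, had a negative difference of -1.18 ± 0.42, against the sign of the list's median.

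Skeletal muscle markers had the most negative median of the lists, -2.33 over 15 tested, with all 15 negative and Myh1 called. At an unadjusted p below 0.05 there were 9, against 2.77% of all genes. Their summed level was 117 and 59.4 CPM in wild-type vehicle skin and 155 CPM after TPA, against 844 and 439 CPM in knockout vehicle skin and 224 CPM after TPA. Both knockout vehicle samples thus lay above the other 4, and the members of the pair differed from each other. The median ran from -3.62 to -0.79 over the 4 vehicle choices, and it was -1.34 without knockout vehicle sample 1 and -3.46 without wild-type vehicle sample 1. Ttn, the giant spring protein of the sarcomere, was 60.3 and 32.3 and then 99.2 CPM in wild type and 499 and 284 and then 142 CPM in knockout, a difference of -2.56 ± 0.50 (edgeR adjusted p = 0.219). How much of the Myh1 difference goes with the amount of muscle in the scraped samples was not tested.

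**Figure D4:**
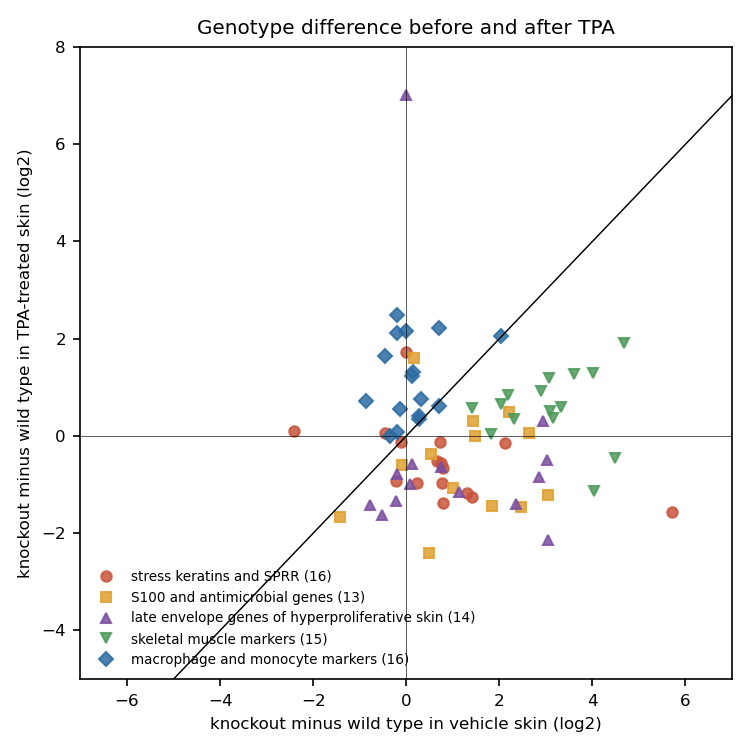
Knockout minus wild type (log2) in vehicle skin (x axis) and in TPA skin (y axis), 1 point per tested member of 5 gene lists, with the line on which the genotype difference is the same under both treatments. Skeletal muscle, stress keratin, S100 and late envelope genes lie mostly under the line, macrophage markers mostly above it, and outlying points of genes at 0 in a group depend on the prior count of the fit.

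The remaining cell type lists stayed closer to 0. The median difference was 0.09 for Langerhans cell and MHC class II markers, with 11 of 12 positive, 0.24 for T cell markers, 0.50 for endothelial markers, 0.29 for hair follicle markers, 0.12 for adipocyte markers, 0.12 for melanocyte markers, 0.40 for mast cell markers and 0.04 for the 2 erythroid markers tested. None of their members was called. The medians of these lists are loose, running over the fits without 1 vehicle sample from 0.0036 to 0.42 for T cell, 0.32 to 0.64 for endothelial, -0.34 to 0.44 for hair follicle, -0.94 to 1.02 for adipocyte and 0.21 to 1.09 for mast cell markers. Their leading genes by p were Itgax (0.50 ± 0.28), Trac (1.89 ± 0.84), Pecam1 (0.82 ± 0.50), Hoxc13 (1.32 ± 0.64), Lpl (-0.63 ± 0.35), Sox10 (2.15 ± 0.63) and Alas2 (0.22 ± 0.47), in log2 units of the difference. Trac, the T cell receptor alpha constant gene, and Sox10, of melanocytes, were both under 3 CPM in all 6 samples, so those values rest on few counts. The mast cell protease gene Cpa3 was at 0 in wild-type TPA skin and at most 0.741 CPM elsewhere, and no fold is given for it.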

How the data were processed

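Total RNA of scraped mouse epidermis was sequenced, and 1 table of read counts per gene was deposited for each sample. The submitters' processing notes name Trim Galore, STAR and HTSeq and the build mm10; which version, role or strand setting applied is not given in the sources used here. The counts as deposited by the authors are whole numbers for 54232 Ensembl identifiers, of which 54165 matched GENCODE M21 for symbols and positions. The 13 mitochondrial protein genes were at 0 in all samples.

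Counts of the 6 vehicle and TPA samples were filtered (edgeR filterByExpr over 4 groups, minimum count 10), scaled by TMM and fitted with 1 mean per group in edgeR 4.0.16 (R 4.3.3, glmQLFit and glmQLFTest). The difference of responses, both responses and their mean were contrasts of that fit, with 2 residual degrees of freedom, both from the vehicle pairs. SE was obtained from the log2 change and its F statistic. Adjusted p-values cover all 20338 genes tested. The vehicle samples of a pair differed beyond counting noise (chi-square per degree of freedom 31.1 in wild type and 13.8 in knockout), so none was counted as the same library deposited again; repeat libraries of one RNA could differ as much. Depth of 16874233 to 22560098 counts puts the floor of 3 counts under 0.2 CPM, which covers counting error only. The procedure was tested on simulated counts drawn around the fitted dispersion trend, with no gene-specific spread, so its recovery is a favourable estimate; 8 of its 170 calls were false.

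The comparison, its samples and the 40 gene lists were chosen with earlier results of these data known. Genes were named by rule: Ddit4, up to 12 of the largest called differences per direction, up to 3 called members or the member with the smallest p of each list, and a set of REDD1-related and TPA-induced genes. Castor2, Mki67, Klk6, Ttn, Csf1r, Csf3r, Cxcr2, Col1a1 and the keratinocyte genes were chosen after their values were seen. One gene that the rule names is not reported here. Alternatives were DESeq2 1.42.0, limma 3.58.1 (voom, and log2 CPM with a prior count of 2), other scalings and filters, all 8 samples, a replicate block, and leaving out each vehicle sample, Gm26917 or the genes within 10 Mb of Ddit4.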

Additional observations from a re-analysis of the deposited data

Results flagged for a closer look

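The 6 genes with a called difference of TPA responses between knockout and wild type were marked for a closer look, because the test of the difference itself passed (edgeR quasi-likelihood, adjusted over all genes). The differences, knockout minus wild type in log2 units, were -2.58 for Lgals4, -3.69 for Stfa3, -5.17 for Myh1, -3.52 for BC100530, -2.00 for Klk13 and -3.19 for Serpina3j, with edgeR adjusted p-values from 0.0333 to 0.0463. The TPA arm of each rests on 1 sample per genotype. Lgals4 and Myh1 were the genes whose 2 responses had opposite signs, and of these the knockout response of Lgals4 was not called.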

How the results depend on the processing

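The count of called differences depended on the tool and the filter. Against 0 higher and 6 lower, DESeq2 gave 4 and 16 (4 of the 20 were among the 6), no low-count filter 2 and 19, all 8 samples 0 and 1, a filter by treatment 0 and 1, and limma-trend on log2 CPM, limma-voom and a minimum count of 50 gave 0 and 0 each. At an unadjusted p below 0.05 these last 3 had 1059, 992 and 730 genes. With the replicate block there were 40 higher and 113 lower, and the 6 were among them. Same-numbered vehicle samples deviated from their group means with a correlation of -0.163 across genes. One such value cannot show whether the numbers pair the samples. A crossed pairing, chosen after seeing the data, gave 38 and 115. Leaving out 1 vehicle sample in turn gave 18 to 161 higher and 67 to 241 lower, always including the 6; like the blocked fits, these have 1 residual degree of freedom. Neither TPA sample can be left out, since the comparison is then undefined. The cause of these changes in count was not tested.

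For the responses themselves, DESeq2 called 1614 genes lower in wild type, and 1831 higher and 1587 lower in knockout. Library size alone gave 1711 higher and 4898 lower in wild type. Leaving out vehicle samples gave 1850 to 4066 higher and 1665 to 3652 lower in knockout, the lowest without knockout vehicle sample 1 and the highest without wild-type vehicle sample 1. In other alternatives these counts stayed within 1.5 times.

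Each of the 6 called genes kept its sign in all 17 alternatives, all of which used the same TPA sample of each genotype. Of genes not called, Flg gained a call in 8, S100a8, S100a9 and Ccl6 in 7 each, Sprr2a3, Fos and Pla2g4e in 6 each, and Mrc1 in 5. Most of these gained calls came from the blocked fits and the fits without 1 vehicle sample, which have 1 residual degree of freedom. Among the other named genes, Sesn2 was -0.027 with DESeq2, -0.027 with RLE scaling, -0.033 with all 8 samples, -0.027 with the filter by treatment, -0.0054 with limma-trend, -0.0071 with limma-voom, -0.018 with a minimum count of 50, -0.047 without a filter, -0.0052 with the replicate block, -0.0046 with the crossed block and -0.035 without Gm26917. With library size alone Sesn3 was 0.15, Tsc1 0.052 and Krt17 0.16, and Tsc2 was -0.012 without a filter. Over the fits without 1 vehicle sample the difference crossed 0 for Alas2 (-0.10 to 0.53), Ddit4l (-0.15 to 1.42), Sesn1 (-0.18 to 0.25), Sesn2 (-0.18 to 0.14), Sesn3 (-0.24 to 0.14), Tsc2 (-0.046 to 0.094), Txnip (-0.074 to 1.31), Krt17 (-0.28 to 0.19), Il1b (-0.14 to 0.34), Odc1 (-0.020 to 0.44) and Mmp13 (-1.95 to 0.19), none of them called in the comparison. Fold changes of genes near the floor of 3 counts are limited by depth.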
